A study of Drosophila melanogaster with 13 samples.

Results

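Aminoacyl-tRNA synthetases are the enzymes that join each amino acid to its transfer RNA (tRNA). They were followed here as 35 genes measured in Drosophila ovarian somatic cells, out of 8475 rows of genes and transposons in the siARMI table and 8480 in the siYB table. Members were the rows named for a synthetase in both deposited tables, such as TrpRS or TrpRS-m. The same 35 names were found in each table. The 20 genes without the suffix -m are called cytosolic and the 15 with it mitochondrial.

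The cells were the line OSC, labelled wildtype in genotype and grown from the somatic cells of the fly ovary. Knockdown cells received small interfering RNA (siRNA) against Armitage (siARMI) or Yb (siYB), and the control cells received siRNA against luciferase (siLUC). Armitage and Yb act in the making of piRNAs, the small RNAs that silence transposons in these cells. Every group had 3 libraries of poly(A) RNA, with transfections at 0 and 48 h and harvest at 96 h. Whether the libraries of a group are separate cultures is not stated, so the spread behind each p-value may be technical. Another 4 libraries, from 4-thiouridine labelling and its input, were not analysed here.

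Each cell compartment that translates needs its own set of charged tRNAs. Cytosolic synthetases serve the ribosomes that read nuclear messages, and mitochondrial synthetases, also encoded in the nucleus, serve the ribosomes that make the few proteins of mitochondrial DNA. The enzymes fall into class I and class II, which have unrelated catalytic folds. In mammals several cytosolic synthetases are held together in a multisynthetase complex by the scaffold proteins AIMP1, AIMP2 and AIMP3.

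The tables give for each gene 1 mean normalised count over the libraries compared, 1 log2 fold change with an error, and 1 p-value, so no value per library can be shown. The log2 fold changes are knockdown over siLUC, as armi itself stood at −1.92 ± 0.07 in the authors' deposited siARMI table and fs(1)Yb at −2.17 ± 0.51 in the siYB table. They had been shrunk toward 0 by the authors' processing. Follicle-cell markers were abundant, with mean normalised counts of 5825 for tj and 7939 for zfh1 in the authors' deposited siARMI table. Of the germ-cell markers, AGO3 stood at 78.0 and the other 4 measured lay at 6.34 or lower in that deposited table.

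The genes of the family differ in what the annotation says of their products. By the annotation of BDGP6.54 (Ensembl), 29 members have 1 start codon and 6 have more. The 5 amino acids with no gene named -m are glutamine, glycine, histidine, lysine and threonine. The genes GlyRS, HisRS, LysRS and ThrRS each have 2 annotated start codons, and their longest and shortest coding forms differ by 86, 42, 33 and 57 codons. GlnRS, the remaining gene of these 5, has 1 start codon. Mitochondria commonly make glutaminyl-tRNA by another route, in which a mitochondrial glutamyl-tRNA synthetase loads glutamate and the amidotransferase GatA, GatB and GatC converts it. The other members with 2 start codons are GluProRS, a fusion enzyme for glutamate and proline, and AspRS-m, with forms that differ by 718 and 57 codons. The deposited tables hold a value per gene, so long and short forms cannot be told apart in them.

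Some of these genes share exon bases with a neighbour in the annotation of BDGP6.54. Of 35 members 19 share none, and 5 share over 10% of their exon bases. AspRS shares 73.5%, most of it with the antisense RNA gene asRNA:CR45141, which alone covers 63.9% on the opposite strand. GluProRS shares 16.6% with the antisense RNA gene asRNA:CR46092. Among mitochondrial genes CysRS-m shares 14.3%, SerRS-m 13.9% and ArgRS-m 11.8%, each with a protein-coding gene on the opposite strand. The kit was directional, but whether counting used strand is not stated, so the values of these 5 genes are uncertain. On the same strand, where strand cannot separate the reads, HisRS shares 8.91% with Bx and AspRS shares 6.80% with the RNA gene asRNA:CR43468.

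Transcripts of cytosolic synthetases were more abundant than those of mitochondrial ones for every amino acid that has both. Levels are given as mean normalised count per kilobase of coding sequence, computed from the authors' deposited siARMI table. Cytosolic levels ran from 127 for CysRS to 1469 for SerRS, with a median of 508. Mitochondrial levels ran from 35.0 for GluRS-m to 422 for AspRS-m, with a median of 67.3. The ratio of the medians was 7.55. The ranges overlap between 127 and 422, where AspRS-m, SerRS-m, TrpRS-m and PheRS-m lie above the lowest cytosolic gene. These levels have no error, because the tables hold means only.

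Among cytosolic genes SerRS, AlaRS and ThrRS were highest, at 1469, 1083 and 1070 counts per coding kilobase (authors' deposited siARMI table). SerRS charges serine, and also the tRNA for selenocysteine in animals that use that residue. The lowest were CysRS at 127, ArgRS at 231 and MetRS at 365 on the same scale of the authors' deposited table. Per kilobase of exon, TrpRS at 282 stood below MetRS at 329 (computed from the authors' deposited table). MetRS loads both elongator and initiator methionine tRNA. The alpha and beta subunits of the cytosolic phenylalanine enzyme, which pair in equal numbers, stood at 562 for alpha-PheRS and 377 for beta-PheRS in that deposited table.

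Among mitochondrial genes AspRS-m led at 422, followed by SerRS-m at 265 and TrpRS-m at 205 counts per coding kilobase (authors' deposited siARMI table). GluRS-m at 35.0, IleRS-m at 49.7 and AsnRS-m at 60.2 were the lowest on that scale of the authors' deposited table. The order depends on the length used. Per kilobase of exon MetRS-m was the lowest, at 26.3, and TrpRS-m at 165 stood above SerRS-m at 130 (computed from the authors' deposited table). The distance between the compartments varied by amino acid. AlaRS stood 17.5 times above AlaRS-m and GluProRS 13.8 times above GluRS-m, while TrpRS was 1.80 times TrpRS-m, CysRS 1.89 times CysRS-m and AspRS 2.00 times AspRS-m, as computed from the authors' deposited table. Ranked by level within their compartment, 17 of 20 cytosolic and 11 of 15 mitochondrial genes had the same rank in the siYB table. The siYB table also includes siLUC libraries, so the 2 rankings are not independent. With exon length in place of coding length, 10 of 20 cytosolic and 3 of 15 mitochondrial genes kept their rank, with shifts of up to 3 and 6 ranks. All cytosolic genes together made up 0.442% of the summed mean counts and the mitochondrial genes 0.0634% (authors' deposited siARMI table).

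**Figure D1:**
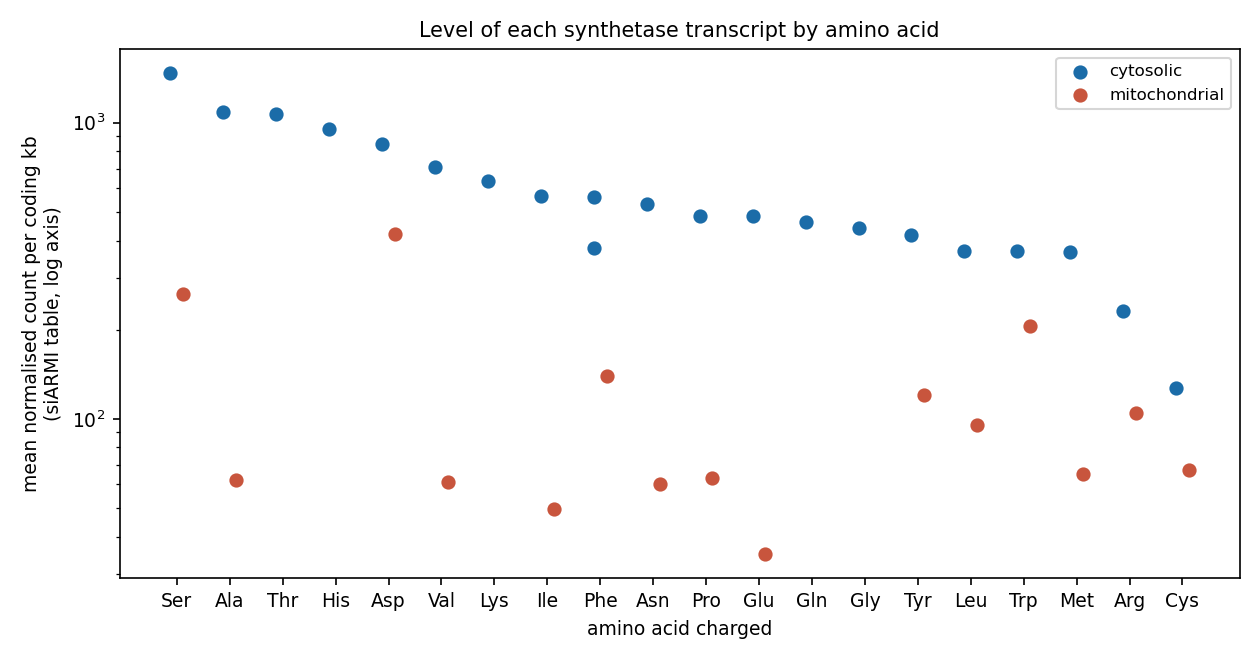
Mean normalised count per coding kilobase in the siARMI table (vertical log axis) for the synthetase genes of each amino acid (horizontal axis), with 1 point per gene in each compartment. Cytosolic genes (blue) lie above the mitochondrial gene (red) for every amino acid that has both, and AspRS-m at 422 is the highest mitochondrial point.

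After Armitage knockdown most cytosolic synthetase transcripts were modestly lower. Of 20 genes 12 fell, 1 rose and 7 did not pass the test, at a Benjamini-Hochberg adjusted p under 0.05 over the whole of the authors' deposited table. Among all 8289 gene rows tested 13.4% were called lower and 14.9% higher. All 20 cytosolic genes had a mean normalised count at or above the median gene row (219.6), where 18.8% of rows were called lower and 19.7% higher. The median log2 fold change was −0.22 over the cytosolic genes and −0.01 over all gene rows, as computed from the authors' deposited table. The lower quartile of all gene rows was −0.18, and no member reached an absolute log2 fold change of 1. In cells measured in bulk, fewer cells making a transcript and less transcript per cell cannot be told apart.

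TrpRS, which charges tryptophan, changed most, at −0.51 ± 0.11 in the authors' deposited siARMI table (adjusted p = 5.19e-06, Benjamini-Hochberg). This amounts to a transcript that fell by 30.0%. TrpRS is the gene FBgn0010803 on chromosome 3R, 9265027 to 9266904, minus strand (BDGP6.54), with 4 exons and 1 annotated transcript.

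The enzymes for the branched amino acids leucine and valine came next. LeuRS stood at −0.42 ± 0.07 (adjusted p = 4.17e-08) and ValRS at −0.39 ± 0.07 (adjusted p = 3.16e-08) in the authors' deposited siARMI table with Benjamini-Hochberg adjustment. IleRS, for the third branched amino acid, fell less, at −0.21 ± 0.07 (adjusted p = 0.0181, Benjamini-Hochberg, authors' deposited table). LeuRS (FBgn0284253) lies on chromosome 2L, 3510328 to 3514656, minus strand (BDGP6.54). In mammals its product also reports leucine supply to the growth kinase TOR.

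SerRS and AlaRS, the most abundant members by coding length, also fell. SerRS stood at −0.37 ± 0.07 (adjusted p = 3.62e-06) and AlaRS at −0.30 ± 0.07 (adjusted p = 3.91e-05) in the authors' deposited siARMI table with Benjamini-Hochberg adjustment. In percent, SerRS fell by 22.5% and AlaRS fell by 18.7%. AlaRS removes wrongly attached serine from its tRNA, a step called editing.

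The remaining falls were smaller. LysRS stood at −0.28 ± 0.07 (adjusted p = 8.51e-04) and GlyRS at −0.28 ± 0.09 (adjusted p = 0.00515) in the authors' deposited siARMI table with Benjamini-Hochberg adjustment. AspRS stood at −0.25 ± 0.07 (adjusted p = 0.00384), ThrRS at −0.23 ± 0.06 (adjusted p = 0.00135) and AsnRS at −0.23 ± 0.09 (adjusted p = 0.0281) in the same deposited table with the same adjustment. GluProRS, the fusion enzyme, had the smallest change among those that fell, at −0.18 ± 0.07 (adjusted p = 0.0308, Benjamini-Hochberg, authors' deposited table). Of the genes with 2 start codons and no counterpart named -m, GlyRS, LysRS and ThrRS fell and HisRS stood at −0.10 ± 0.07, not past the test (authors' deposited table).

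MetRS was the cytosolic member that rose, by 0.20 ± 0.08 in the authors' deposited siARMI table (adjusted p = 0.0422, Benjamini-Hochberg). It did not pass at a threshold of 0.01. ArgRS had the other positive value, 0.14 ± 0.10, and did not pass (adjusted p = 0.329, Benjamini-Hochberg, authors' deposited table). Closest to the threshold on the other side was GlnRS, at −0.19 ± 0.08 with an adjusted p of 0.0537 (Benjamini-Hochberg, authors' deposited table). TyrRS, at −0.00 ± 0.09, and beta-PheRS, at −0.05 ± 0.10, had the values nearest to 0 in the authors' deposited table, while alpha-PheRS stood at −0.15 ± 0.09 and CysRS at −0.12 ± 0.12. An error of that size leaves small changes of these genes undetectable.

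**Figure D2:**
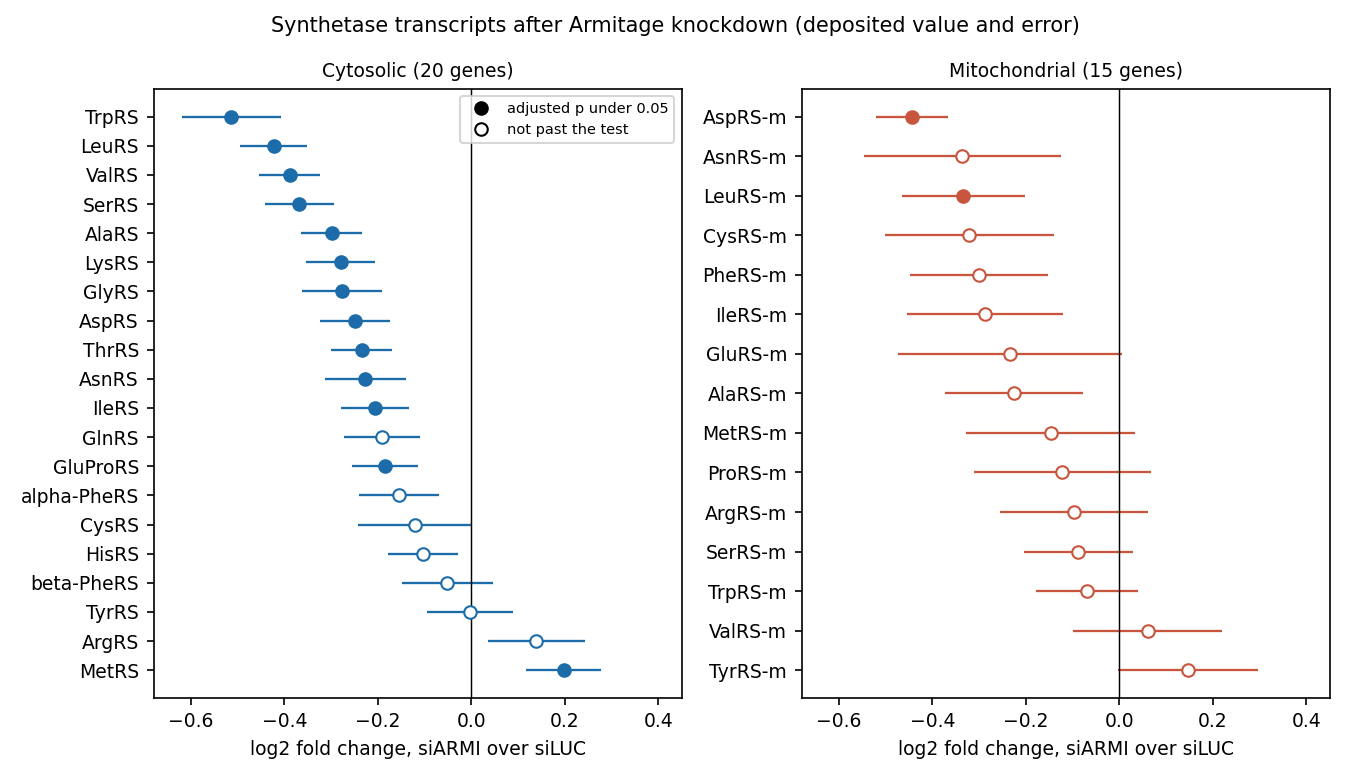
Log2 fold change of each synthetase transcript, siARMI over siLUC (horizontal axis), with the deposited error as a bar, for 20 cytosolic genes (left) and 15 mitochondrial genes (right). Filled points passed the test: 13 cytosolic genes, of which MetRS lies to the right of 0, and the mitochondrial genes AspRS-m and LeuRS-m.

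Class II cytosolic genes had 7 of 10 members lower and 0 higher, with a median log2 fold change of −0.24 computed from the authors' deposited table. Class I cytosolic genes had 4 of 9 lower and 1 higher, with a median of −0.19 from the same deposited table. GluProRS belongs to both classes and is in neither count. All these genes lie at or above the median count, where 18.8% of gene rows were called lower and 19.7% higher. The difference between the classes was not tested. No class II member of either compartment had a positive value, and the positive values of ArgRS, MetRS, TyrRS-m and ValRS-m all belong to class I, as read from the authors' deposited table.

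Both inside and outside the multisynthetase complex, taken by analogy with mammals, more genes fell than rose. Among the 8 synthetases of the complex 5 fell and 1 rose, with a median of −0.20, and among the 12 cytosolic genes outside it 7 fell and 0 rose, with a median of −0.23, as computed from the authors' deposited table. Gene rows at or above the median count, where all of these lie, had 18.8% called lower and 19.7% higher. The rise of MetRS and the positive value of ArgRS were inside the complex, together with the fall of LeuRS. Of the scaffold genes AIMP2 fell, at −0.28 ± 0.12 (adjusted p = 0.0479, Benjamini-Hochberg, authors' deposited table). AIMP1 stood at 0.03 ± 0.12 and AIMP3 at 0.09 ± 0.13 in the authors' deposited table, and neither passed.

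Of 15 mitochondrial synthetases 2 fell, 0 rose and 13 did not pass in the authors' deposited siARMI table, and 0 positive values had an unadjusted p under 0.05. The share called lower, 13.3%, is near the 13.4% of all gene rows. The median log2 fold change of −0.22 was nevertheless as low as that of the cytosolic genes, and 13 of 15 values were negative, as computed from the authors' deposited table. Over both compartments 31 of 35 values were negative, against 4232 of 8289 gene rows.

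The gene AspRS-m, for mitochondrial aspartyl-tRNA, fell by 0.44 ± 0.08 on the log2 scale in the authors' deposited siARMI table (adjusted p = 7.07e-08, Benjamini-Hochberg). It is the gene FBgn0051739 on chromosome 2L, 16827078 to 16832093, plus strand (BDGP6.54), and its coding sequence of 3417 bases is the longest in its compartment. LeuRS-m stood at −0.33 ± 0.13 (adjusted p = 0.0279, Benjamini-Hochberg, authors' deposited table). LeuRS-m did not pass at a threshold of 0.01. The separate cytosolic genes for the same 2 amino acids, AspRS and LeuRS, also fell.

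Several mitochondrial genes had values as low as those of cytosolic genes that passed, but with wider errors. AsnRS-m stood at −0.34 ± 0.21, CysRS-m at −0.32 ± 0.18, PheRS-m at −0.30 ± 0.15 and IleRS-m at −0.29 ± 0.17 in the authors' deposited siARMI table. GluRS-m at −0.23 ± 0.24 and AlaRS-m at −0.22 ± 0.15 followed in that deposited table. None of these 6 passed the test, with PheRS-m closest at an adjusted p of 0.0863 (Benjamini-Hochberg, authors' deposited table). At the other end TyrRS-m stood at 0.15 ± 0.15, ValRS-m at 0.06 ± 0.16 and TrpRS-m at −0.07 ± 0.11 in the authors' deposited table, each no larger than its error. The same holds for SerRS-m at −0.09 ± 0.12, ArgRS-m at −0.10 ± 0.16, ProRS-m at −0.12 ± 0.19 and MetRS-m at −0.15 ± 0.18 (authors' deposited table).

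Genes with a higher mean count tended to have a smaller error of the log2 fold change. Mean normalised counts ran from 283 to 3139 for cytosolic genes and from 53.6 to 1443 for mitochondrial genes in the authors' deposited siARMI table. The errors ran from 0.06 to 0.12 for cytosolic genes, with a median of 0.08, and from 0.08 to 0.24 for mitochondrial genes, with a median of 0.16, in that deposited table. The shrinkage was also stronger for the mitochondrial genes. The ratio of log2 fold change to error, divided by the normal quantile of the p-value, was 0.979 at the median of the cytosolic genes and 0.924 at that of the mitochondrial genes, where 1 means no shrinkage. Of the mitochondrial genes 4 had a count at or above the median gene row, and 2 of these fell. The other 11 had lower counts and 0 of them passed in either direction, while 7.94% of all gene rows below the median count were called lower and 10.2% higher. Of all 13 mitochondrial genes that did not pass, 2 had an unadjusted p under 0.05. In the range of counts that both compartments share, 283 to 1443, 6 of 13 cytosolic and 1 of 3 mitochondrial genes fell. All gene rows in that range had 18.2% called lower. Whether the compartments differ in their response was not tested.

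**Figure D3:**
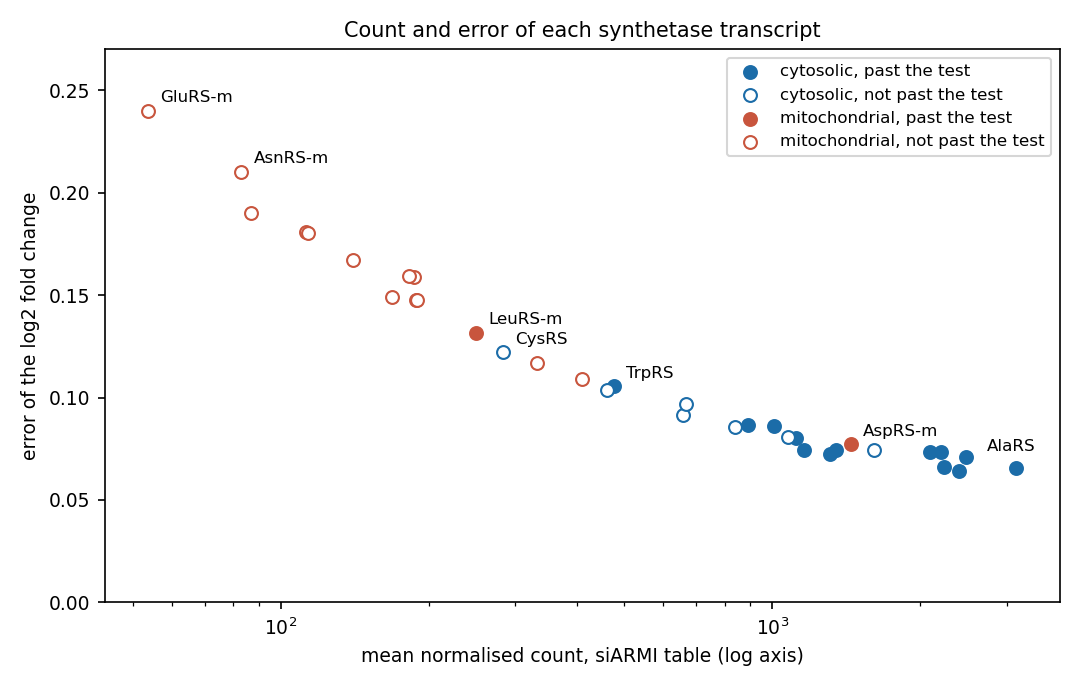
Error of the log2 fold change (vertical axis, log2 units) against the mean normalised count of the siARMI table (horizontal log axis), with 1 point per synthetase gene. Errors tend to fall with the count, to 0.06 for ThrRS, and all mitochondrial genes below the median count of 219.6 are open points, meaning not past the test.

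Genes that load the same amino acid in the 2 compartments differed in both directions, mostly within their errors. In 16 pairs the cytosolic minus mitochondrial difference of log2 fold changes ran from −0.45 to 0.35 with a median of 0.07, as computed from the authors' deposited siARMI table. The median was −1.03 when normal quantiles of the p-value took the place of log2 fold changes, so its sign depends on the scale. By log2 fold change the cytosolic gene was the lower of the pair in 7 and the higher in 9. GluProRS and PheRS-m each enter 2 pairs. In 2 pairs, those for aspartate and leucine, both genes fell. In 8 pairs the cytosolic gene alone passed with a fall, and in 5 neither passed. The methionine pair held the rise of MetRS beside MetRS-m at −0.15 ± 0.18 (authors' deposited table).

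The differences for valine, tryptophan and serine were the largest on the side of the cytosolic gene. ValRS minus ValRS-m was −0.45 ± 0.17, TrpRS minus TrpRS-m was −0.44 ± 0.15 and SerRS minus SerRS-m was −0.28 ± 0.14, from the authors' deposited table with the combined error of both genes. On the opposite side MetRS minus MetRS-m was 0.35 ± 0.20 and beta-PheRS minus PheRS-m was 0.25 ± 0.18, from the same deposited table. The 3 pairs for valine, tryptophan and serine exceeded 2 combined errors and the other 13 did not. The combined error treats the genes as independent, and these differences are a description without a test.

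**Figure D4:**
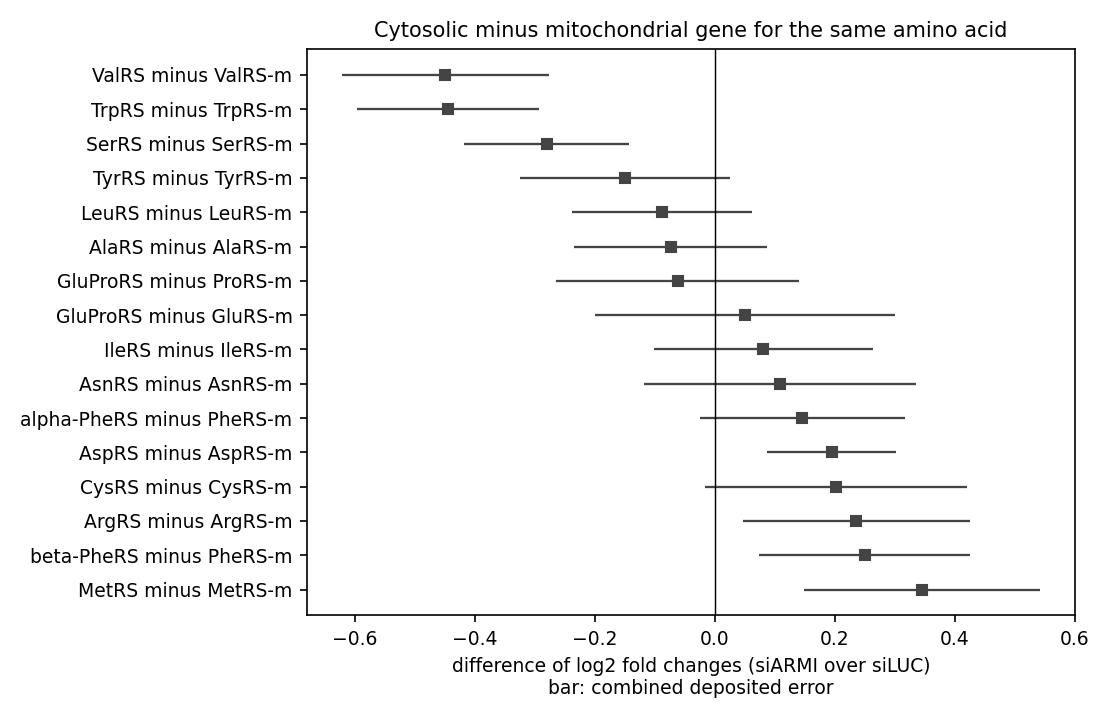
Difference of log2 fold changes (siARMI over siLUC), cytosolic minus mitochondrial gene, for 16 pairs that charge the same amino acid, with the combined deposited error as a bar. The pairs for Val, Trp and Ser lie farthest to the left of 0, and MetRS minus MetRS-m lies farthest to the right at 0.35.

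Factors that receive charged tRNA were read beside the synthetases. The shares over all gene rows were 13.4% lower and 14.9% higher. Of 6 cytosolic elongation factors 1 fell and 0 rose, the member that fell being eEF1gamma, a subunit of the exchange factor for eEF1alpha, at −0.16 ± 0.06 (adjusted p = 0.0185, Benjamini-Hochberg, authors' deposited siARMI table). The tRNA carrier eEF1alpha1 stood at 0.04 ± 0.06 and the translocase eEF2 at −0.03 ± 0.05 in the authors' deposited table. Of 84 rows of cytosolic ribosomal proteins 3 fell and 7 rose, with a median of 0.04 computed from the deposited table. The median of the ribosomal protein genes thus lay above 0 and that of the cytosolic synthetases below it.

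In mitochondria, the factors that carry or act on charged tRNA included some larger falls. Of 10 measured 3 fell and 0 rose, with 0 positive values at an unadjusted p under 0.05 (authors' deposited siARMI table). Among all 8289 gene rows 13.4% were called lower and 14.9% higher. The elongation factor genes mEFG1, mEFTu1 and mEFTs stood at −0.61 ± 0.14, −0.58 ± 0.09 and −0.43 ± 0.14 in the authors' deposited table. Slimp, a relative of the seryl-tRNA synthetase that works with SerRS-m in flies, stood at −0.48 ± 0.25 and did not pass (adjusted p = 0.0662, Benjamini-Hochberg, authors' deposited table). The amidotransferase genes GatA at −0.24 ± 0.15, GatB at 0.07 ± 0.17 and GatC at −0.13 ± 0.12 did not pass either (authors' deposited table). Proteins of the mitochondrial ribosome were measured through 72 genes, of which 20 (27.8%) fell and 0 rose. An unadjusted p under 0.05 was found for 28 of the 72 genes, against 3075 of 8289 gene rows. The median of these ribosomal genes was −0.23 and that of the mitochondrial synthetases −0.22, both computed from the authors' deposited table. Among 4 genes of tRNA end processing mldr, part of mitochondrial RNase P, fell, at −0.46 ± 0.18 (adjusted p = 0.0191, Benjamini-Hochberg, authors' deposited table).

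**Figure D5:**
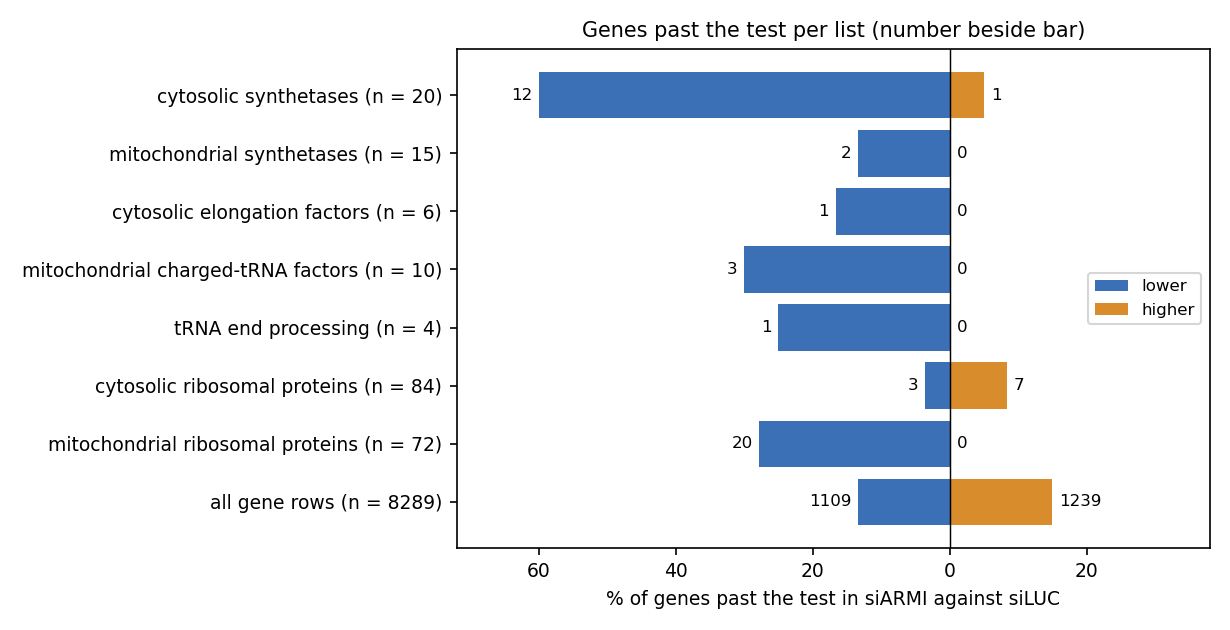
Percent of measured genes past the test in siARMI against siLUC (horizontal axis; lower to the left of 0, higher to the right) for each list and for all gene rows, with the number of genes beside each bar. Cytosolic synthetases have 12 of 20 genes lower, while mitochondrial synthetases with 2 of 15 lie near all gene rows with 1109 of 8289.

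Regulators known to act on synthetase genes in other settings were also measured. ATF4, encoded by crc, drives amino acid and synthetase genes during the integrated stress response. crc itself fell, at −0.36 ± 0.06 (adjusted p = 1.63e-08, Benjamini-Hochberg, authors' deposited siARMI table), and of 10 measured genes of its axis 5 fell and 1 rose. The fall was largest for Thor, an inhibitor of cap-dependent translation, at −1.36 ± 0.29, and the gene that rose was Nmdmc, an enzyme of mitochondrial folate metabolism, at 0.34 ± 0.12 (authors' deposited table). Gcn2, the kinase that senses uncharged tRNA, stood at −0.25 ± 0.10, its substrate eIF2alpha at −0.25 ± 0.09 and the asparagine synthetase AsnS at −0.23 ± 0.09, all past the test in the authors' deposited table. Myc, a driver of ribosome production, stood at 0.06 ± 0.09 and did not pass, while 6 of 9 genes of its list fell, among them the nucleolar genes nop5 at −0.52 ± 0.08 and Nop56 at −0.39 ± 0.09 (authors' deposited table). Fib, Nop60B and Nnp-1 fell as well, by less than Nop56. The list also holds Mnt, an antagonist of Myc, which fell too, at −0.43 ± 0.15 (authors' deposited table). Of gene rows at or above the median count 18.8% were called lower and 19.7% higher. That range holds 9 of the 10 genes of the ATF4 axis and 8 of the 9 of the Myc list. Both lists were chosen with earlier results of these data known. Any link of the genes of either list to the synthetases was not tested.

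Some cell type markers moved in the same comparison. tj stood at −0.30 ± 0.07 and zfh1 at −0.23 ± 0.08, while Fas3 rose by 2.13 ± 0.18, the muscle gene Mhc by 1.08 ± 0.27 and the hemocyte factor srp by 1.05 ± 0.19 in the authors' deposited siARMI table. Of the markers fixed, 4 of 5 for follicle cells fell and 1 rose, 2 of 5 for germ cells, 1 of 2 for muscle and the 1 measured for hemocytes rose, and 0 of 2 for neurons passed. Among all gene rows 13.4% were called lower and 14.9% higher. All 5 follicle-cell markers lie at or above the median count, where these shares were 18.8% and 19.7%. The measured markers of germ cells, muscle and hemocytes lie below it, where the shares were 7.94% and 10.2%. The germ-cell genes that rose were AGO3, at 1.82 ± 0.25, and osk, at 1.29 ± 1.43 (authors' deposited table). The value of osk is smaller than its error and rests on a mean count of 5.05. The part of these markers in the synthetase values was not tested.

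After Yb knockdown no synthetase passed the test. Of 35 genes 0 were called by the Benjamini-Hochberg adjusted p of the authors' deposited siYB table, whose columns are those of DESeq2, and 0 had an unadjusted p under 0.05. Among all 8295 gene rows tested 6, or 0.0723%, were called, and 46 had an unadjusted p under 0.05. Unadjusted p-values ran from 0.656 for AspRS-m to 0.997 for TyrRS in the authors' deposited siYB table, with a median of 0.825 over the members and 0.728 over all gene rows. At or above 0.656 lay 61.7% of all gene rows, so high p-values were common in this table. The lack of calls among the synthetases therefore does not show a lack of change. The p-values of genes that fell after Armitage knockdown were 0.844 for TrpRS, 0.747 for LeuRS and 0.728 for ValRS in the authors' deposited siYB table.

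Sizes cannot be read from the siYB comparison. The deposited log2 fold changes of all members had been shrunk to about 0, with errors of 0.0014, so neither their size nor their sign is used. Both tables were made against siLUC libraries, which the series design gives as common to both knockdowns. Whether the synthetases responded differently to the knockdowns was not tested.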

How the data were processed

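RNA was sequenced from OSC cells with 3 libraries per group. DESeq2, edgeR, Salmon 1.7.0, STAR, Bowtie and HOMER are named, without roles, per the submitters' processing notes. Genome build, counting method and its strand setting: not given in the sources used here. Per the file headers the authors deposited for each comparison a mean normalised read count (a signal on the scale of its table), a log2 fold change with its error, and p-values before and after adjustment. The deposited values are results, so the count tests planned could not be run and the authors' adjusted p-value under 0.05 defines a call. Recomputed Benjamini-Hochberg values differed from the deposited ones by at most 3.64e-14, and that step was tested on simulated p-values. Depth per library is unknown, and with it the precision it gives. The mean counts summed to 6210715 in the siARMI table and 1642735 in the siYB table.

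Members are the rows whose gene name matches the synthetase pattern in both tables, and transposon rows (184 and 183) carry a prefix. All 35 matched the annotation of BDGP6.54, which gave lengths, start codons and overlaps. Every called member is named, and of the others the extremes of fold change and level and the matched pairs. Other genes come from lists of the pathway, matched by symbol or an unambiguous synonym. Members and lists were chosen with earlier results of these data known. Alternatives were other thresholds, adjustment over gene rows only, a filter on counts, subsets of members, normal quantiles of the p-value with the sign of the change, exon length and the siYB table. Tables were handled with pandas 2.3.3 and scipy 1.17.1. Promoter and protein sequences were not used here.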

Additional observations from a re-analysis of the deposited data

How the results depend on the processing

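The counts of cytosolic genes that fell stayed within 1.5 times of 12 under the thresholds 0.01 and 0.1, adjustment over gene rows, the filter on counts and the removal of GlyRS with LysRS, of all 4 genes with 2 start codons and no counterpart named -m, or of the 5 genes that share over 10% of their exon bases, with 9 to 13 genes; the last 2 were chosen after seeing the data. The removals could not have moved the count past that limit. They take out at most 4 cytosolic genes and leave every other call as it was. At the threshold 0.01 the cytosolic genes that rose were 0 and the mitochondrial genes that fell 1. In the range of counts that both compartments share, an alternative chosen after seeing the data, 6 cytosolic and 1 mitochondrial genes fell. That range holds only 13 cytosolic and 3 mitochondrial genes. The cytosolic median there was −0.191 and the mitochondrial median −0.088. The median pair difference of 0.07 reversed to −1.03 when signed normal quantiles of the p-value replaced log2 fold changes. The quantile also scales with precision, which is lower in mitochondrial genes. Single calls changed for 5 genes at 0.01 (AsnRS, GluProRS, IleRS, LeuRS-m and MetRS lost theirs), for 2 at 0.1 (GlnRS and PheRS-m gained one) and for GlnRS under the filter on counts (adjusted p = 0.0394, Benjamini-Hochberg). The siYB count was 0 at every other threshold, adjustment and filter that was run. None of these could have changed it, as the lowest unadjusted p of a member was 0.656 and adjustment never lowers a p-value. The ratio of levels was 7.69 with exon length and 7.12 in the siYB table. No paired analysis was possible because the tables hold no per-library values. For the same reason leaving out a replicate and another normalisation were not run, and promoter motifs and protein features were not run for want of sequence.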

Other observations

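GluRS-m and TyrRS lie next to each other on chromosome 3L on the minus strand, with 171 bases between them (BDGP6.54). They serve different compartments and differ in level, at 35.0 and 417 counts per coding kilobase, and neither passed the test after Armitage knockdown (authors' deposited table).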
